A study of Homo sapiens with 4 samples.

Results

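The ARP2/3 complex nucleates branched actin filaments, and WASP, the product of WAS, switches it on in cells of the blood lineage. The genes described here are the 9 genes that encode ARP2/3 subunits (ACTR2, ACTR3, ARPC1A, ARPC1B, ARPC2, ARPC3, ARPC4, ARPC5 and ARPC5L) and WAS. They were chosen by gene symbol from the 20323 genes of the table by a rule that uses no measured value, although earlier results of these data were known, and all 10 were among the 11810 genes with enough counts to be tested. RNA was taken from NK-92, an established line of human natural killer (NK) cells, grown with 100 IU per mL of interleukin 2. Both groups were transduced with lentivirus, NK scramble with a control hairpin and NK shADAR1 with a hairpin against the RNA-editing enzyme ADAR1, and each group had 2 libraries. The labels call the replicates of a group independent. P-values rest on the spread between replicates, which edgeR estimates in part from all tested genes together. A gene's own spread therefore enters its p-value and standard error only in part. Because each library is a bulk sample, fewer expressing cells and less RNA per cell cannot be told apart. The comparison asked whether transcripts of this actin machinery differed in cells with reduced ADAR1, whose migration the study also examined.

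ARP2 and ARP3, the products of ACTR2 and ACTR3, resemble actin and form the start of the new filament. ARPC1 to ARPC5 hold them together and bind the side of the existing filament. ARPC1 exists as ARPC1A or ARPC1B and ARPC5 as ARPC5 or ARPC5L, so that complexes of different composition are present in a cell. CDC42 and phosphoinositides open WASP, which then delivers actin to the complex. In NK cells this machinery builds the actin network of the immune synapse and of the leading edge. Loss of WASP causes Wiskott-Aldrich syndrome, in which NK cell killing is impaired, and loss of ARPC1B causes a related immunodeficiency.

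The study names shADAR1-2 as the hairpin of the sequenced cells. The knockdown libraries are titled shADAR1-1 and shADAR1-2, which are also names of hairpins in the study, and they were read as replicates because the scramble libraries are numbered the same way and the series describes replicates. If the numbers instead name hairpins, the spread between the knockdown libraries includes a difference between hairpins, and the sequence applies to 1 of them. The target sequence of shADAR1-2 is shown because it defines the comparison, with no base in capitals.
shADAR1-2: gccgtgtcccgaggaagtgca
All 21 bases occurred in an annotated ADAR transcript of GENCODE release 29. In transcripts of the 10 genes the longest exact match, on either strand, was 7 to 10 bases, with the 10 bases in ARPC1B.

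Among the 10 genes, 3 had estimated counts that were not whole numbers within 1e-06 in at least 1 library. They were ARPC1A, ARPC1B and ARPC4, against 23.4% of all tested genes with such counts. A count that is not whole can arise where reads are divided among genes, but the counting program is not known and this was not tested. All 3 overlap a readthrough gene, whose transcripts join exons of neighbours. The junctions are shown because each begins with the same bases as the member gene and differs only after the splice. Lower case marks the last 24 bases of the shared exon, and capitals the first 24 bases of the next exon, from GENCODE release 29 on GRCh38, plus strand.
ARPC4-201: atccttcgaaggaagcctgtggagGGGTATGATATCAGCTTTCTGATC
ARPC4-TTLL3-201: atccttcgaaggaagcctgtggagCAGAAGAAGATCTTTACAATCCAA
ARPC1A-201: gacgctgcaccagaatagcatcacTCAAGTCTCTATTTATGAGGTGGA
AC004922.1-201: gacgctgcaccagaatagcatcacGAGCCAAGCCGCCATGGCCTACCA
The shared ARPC4 exon ends at chr3:9801733-9801756 and is followed by chr3:9803843-9803866 in ARPC4 and by chr3:9812943-9812966, an exon of TTLL3, in the readthrough. The shared ARPC1A exon ends at chr7:99359715-99359738 and is followed by chr7:99363543-99363566 in ARPC1A and by chr7:99385702-99385725, an exon start of ARPC1B, in the readthrough. All of these positions are coding in the transcripts named.

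The deposited counts carry no coordinates, and the genome build behind them is not given in the sources used here. In GRCh38, ARPC1A (chr7:99325910-99366262) and ARPC1B (chr7:99374249-99394816) are neighbours on the plus strand of chromosome 7, inside the span of readthrough ENSG00000284292, which GENCODE names AC004922.1 (chr7:99325879-99394653). ARPC4 lies at chr3:9792495-9807726 and WAS at chrX:48676596-48691427, both on the plus strand. Of all 31-base words in coding transcripts of ARPC1A, 77.5% also occurred, on either strand, in a transcript of another gene. For ARPC1B this was 51.3%, for ARPC3 35.5%, for ARPC4 33.8%, for ACTR2 14.2% and for ARPC5 7.38%. ARPC2 and ARPC5L shared no such word, and ACTR3 and WAS shared 2.47% and 1.55%. The words of ARPC1A and ARPC1B were shared mainly with the readthrough. Those of ARPC4 were shared with ARPC4-TTLL3 and with TADA3, which overlaps its start on the opposite strand. Whether counting used strand is not stated, and without it reads of ARPC4 and TADA3 cannot be told apart where they overlap. ARPC3 is matched by pseudogene copies, ARPC3P1 among them. Levels of ARPC1A, ARPC1B, ARPC3 and ARPC4 are therefore less certain than those of ARPC2 and ARPC5L.

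Libraries held 37881704 to 39960491 estimated counts. ADAR had 655 and 682 CPM (counts scaled to a common library total, with TMM normalization) in scramble cells, against 575 and 482 CPM after knockdown, where each pair of values here and below gives replicate 1 and then replicate 2. Both knockdown libraries were lower, but the log2 fold change of -0.34 (standard error 0.20) did not pass edgeR's quasi-likelihood test (unadjusted p = 0.127, adjusted p = 1.00). The study reports the knockdown in NK-92 cells from separate measurements, qRT-PCR and western blot. Matching the NK label, 8 of 8 NK markers were above 0 in every library, with a summed level of 3420 to 3910 FPKM, which is scaled by depth and transcript length. Of 6 T cell markers 2 were above 0 in every library, with a sum of 105 to 140 FPKM that came almost wholly from TRAC (124 FPKM), and CD8A was at 0. B cell markers summed to 0.501 to 2.38 FPKM, with MS4A1 at 0, and monocyte markers to 0.706 to 1.64 FPKM. Erythroid and platelet markers summed to at most 0.052 FPKM, with HBB, PPBP and PF4 at 0.

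All 10 genes were well expressed. Their mean FPKM lay between percentiles 82.8 and 98.6 of the tested genes, with a median of 123 FPKM against 11.3 FPKM over all tested genes. ARPC2, a subunit at the core of the complex that contacts the mother filament, was the most abundant at 470 ± 15.7 FPKM (mean ± SD over the 4 libraries, as for the next values). ARPC1B followed at 278 ± 17.1 FPKM, ACTR3 at 258 ± 29.7 FPKM and ARPC3 at 213 ± 16.7 FPKM. A lower tier held ARPC5 at 129 ± 7.29 FPKM, ARPC5L at 118 ± 14.1 FPKM and ACTR2 at 106 ± 14.6 FPKM. The activator WAS stood at 95.1 ± 3.33 FPKM, ARPC1A at 69.2 ± 6.48 FPKM and ARPC4 at 46.1 ± 16.0 FPKM. Mean FPKM of the highest and the lowest gene differed 10.2-fold, where ARPC4, the lowest, ranged from 29.2 to 60.3 FPKM over the libraries. The assembled complex holds 1 of each subunit type, but these are RNA levels and do not measure the proteins.

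The order was only partly resolved. Ranges over the 4 libraries did not overlap between ARPC2 and ARPC1B, between ARPC3 and ARPC5, between WAS and ARPC1A, or between ARPC1A and ARPC4. The last gap was narrow, from 60.3 FPKM, the highest value of ARPC4, to 60.6 FPKM, the lowest of ARPC1A. The ranges of the other neighbours in the order overlapped. ACTR3 still exceeded ARPC3 in 4 of 4 libraries, whereas ARPC1B over ACTR3, ARPC5 over ARPC5L, ARPC5L over ACTR2 and ACTR2 over WAS each held in 3 of 4.

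**Figure D1:**
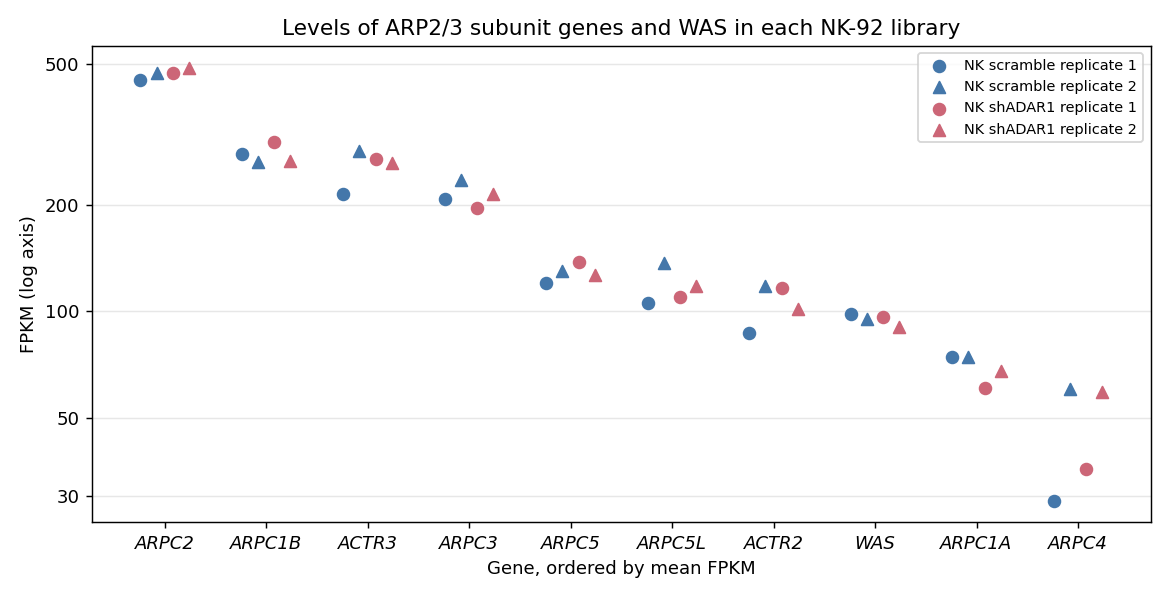
FPKM (log axis) of the 9 ARP2/3 subunit genes and WAS in each of the 4 libraries, ordered by mean; circles are replicate 1 and triangles replicate 2, blue NK scramble and red NK shADAR1. The groups intermix for most genes, ARPC2 is highest at 450 to 488 FPKM, and ARPC4 shows both triangles near 60 FPKM and both circles lower.

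None of the 10 genes changed between NK shADAR1 and NK scramble cells in edgeR's quasi-likelihood test. Requiring a 1.5-fold change or more with adjusted p below 0.05, 0 of 10 were called, as were 0% of the 11810 tested genes. At an unadjusted p under 0.05 it was again 0 of 10, where 2.48% (293) of tested genes passed. DESeq2 also gave 0 of 10 at either threshold, where 289 of 15605 genes passed unadjusted and 0 passed adjusted. The study, by contrast, reports differentially expressed genes from DESeq2 at the same adjusted p and fold change. Why its calls differ from those here was not tested. The log2 fold changes ran from -0.22 to 0.095, 5 above and 5 below 0, with a median of 0.019 against 2.8e-05 over all tested genes. Unadjusted p-values lay between 0.30 and 0.956, and all adjusted p-values were 1.00.

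The intervals say how large a change could have been missed. For 7 of the 10 genes the 95% interval of the log2 fold change lay within ±0.585, a fold change of 1.5, as it did for 32.0% of all tested genes. These 7 were ACTR2, ACTR3, ARPC1B, ARPC2, ARPC5, ARPC5L and WAS. The intervals of ARPC1A (-0.65 to 0.22) and ARPC3 (-0.59 to 0.35) reached past 1.5-fold downwards, and that of ARPC4 (-0.72 to 0.91) did so in both directions. The upper limit of ACTR3, 0.582, and the lower limit of ARPC3, -0.591, both lay close to that line. Summed over the 9 subunit genes, the level was 1566 and 1775 FPKM in scramble cells, against 1695 and 1705 FPKM after knockdown. Both knockdown libraries fell between the control libraries.

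**Figure D2:**
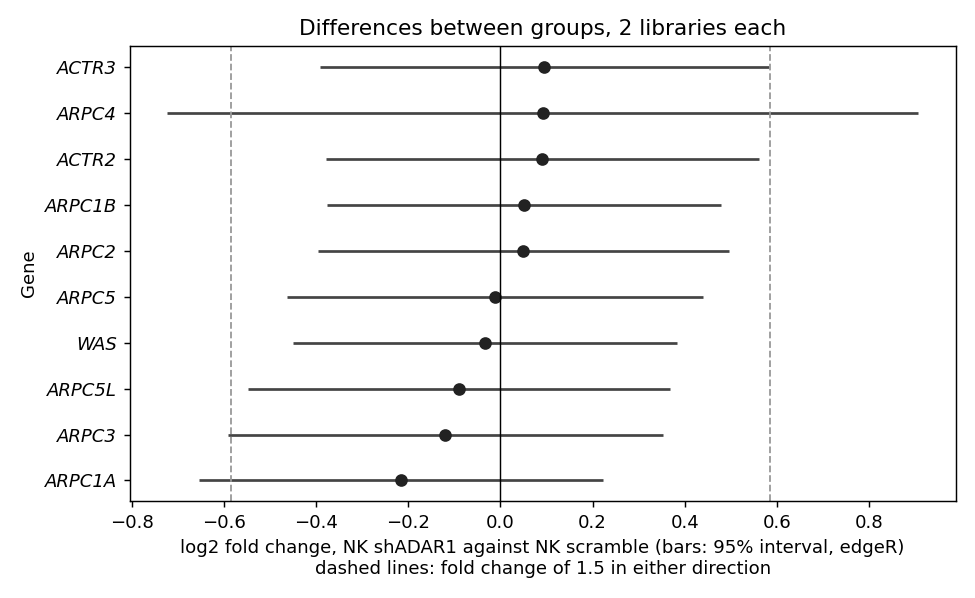
log2 fold change of each gene in NK shADAR1 against NK scramble cells, with its 95% interval from edgeR; dashed lines mark 1.5-fold. Every interval includes 0, and only those of ARPC1A, ARPC3 and ARPC4 cross a dashed line.

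Of the actin-related subunits that start the filament, ACTR2 had 312 and 404 CPM in scramble cells, against 407 and 355 CPM after knockdown. ACTR3 had 464 and 632 CPM in scramble cells, against 566 and 605 CPM after knockdown. In both genes NK scramble replicate 1 was the lowest library, and the groups overlapped. Their log2 fold changes were 0.091 (standard error 0.21) and 0.095 (standard error 0.22), and without that library they were -0.087 and -0.11.

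ARPC2, which forms the core together with ARPC4, had 622 and 673 CPM in scramble cells, against 634 and 706 CPM after knockdown. Its log2 fold change was 0.050 (standard error 0.20). ARPC3, a small subunit that touches ARP3, had 178 and 218 CPM in scramble cells, against 159 and 205 CPM after knockdown, a log2 fold change of -0.12 (standard error 0.21). In both genes, replicate 2 was higher than replicate 1 within each group, and the groups overlapped.

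ARPC4 varied most. It had 37.9 and 82.0 CPM in scramble cells, against 44.4 and 83.4 CPM after knockdown, a 2.20-fold range. Its log2 fold change between the groups was 0.092 (standard error 0.37), whereas the libraries numbered 2 exceeded those numbered 1 by 1.01 on the log2 scale. Of all tested genes, 1.02% had a larger difference in that direction. Depending on which library was left out, the group difference of ARPC4 ran from -0.44, without NK shADAR1 replicate 2, to 0.75, without NK scramble replicate 2. In the latter fit its unadjusted p was 0.0257 and no adjusted p of the 10 genes passed. Over the 4 libraries, the SD of log2 CPM was 0.591 for ARPC4, against a median of 0.169 over the 10 genes and of 0.212 over all tested genes.

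This split by replicate number was not limited to ARPC4. Both libraries numbered 2 lay above both numbered 1 in 6 of the 10 genes (ACTR3, ARPC2, ARPC3, ARPC4, ARPC5 and ARPC5L), against 24.3% of tested genes. Both lay below in 2 of 10, ARPC1B and WAS, against 22.3% of tested genes. Between the study's groups, both NK shADAR1 libraries lay above both NK scramble libraries in 0 of 10 genes, against 13.3% of tested genes, and below them in 1 of 10, ARPC1A, against 12.6%. Of 72 tested genes in the lists below, both libraries numbered 2 lay above in 23 and below in 16, against the same 24.3% and 22.3%. Some of them split at a size like that of ARPC4, and the following were named after their values were seen. TMSB4X, which encodes the actin monomer-binding thymosin beta 4, had 2147 and 4154 CPM in scramble cells, against 2356 and 4592 CPM after knockdown. CDC42, the GTPase that opens WASP, had 92.5 and 190 CPM in scramble cells, against 101 and 192 CPM after knockdown. In the other direction, libraries numbered 2 differed from those numbered 1 by -0.57 in CORO7 and -0.785 in CYFIP1 on the log2 scale. The labels do not say what libraries with the same number share, and the part of any such factor was not tested.

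ARPC1B, the ARPC1 form that predominates in blood cells, was the steadiest of the 10 genes. It had 416 and 407 CPM in scramble cells, against 439 and 413 CPM after knockdown, a 1.08-fold range, with a log2 fold change of 0.052 (standard error 0.19). ARPC1A, its widely expressed paralog, had 116 and 119 CPM in scramble cells, against 92.4 and 111 CPM after knockdown. It was the only 1 of the 10 genes whose groups did not overlap, and its log2 fold change of -0.22 (standard error 0.20, unadjusted p = 0.30) did not pass the test. Leaving out the lower knockdown library, replicate 1, gave -0.091, and leaving out NK shADAR1 replicate 2 gave -0.353.

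In share of FPKM, ARPC1B made up 78.9% and 78.1% of the sum of ARPC1A and ARPC1B in scramble cells, against 83.3% and 79.7% after knockdown. The mean difference was 2.98 percentage points, with both NK shADAR1 libraries higher. The two-sided exact permutation test gave p = 0.333, the smallest that 2 libraries a group allow. Without NK shADAR1 replicate 1 the difference was 1.21 points, and without NK shADAR1 replicate 2 it was 4.75 points.

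The readthrough of this locus, ENSG00000284292, was examined because it overlaps both genes, after its values were seen. It had 137 and 281 estimated counts in scramble cells, against 85.8 and 113 after knockdown, which is 2.36% to 5.99% of the ARPC1A count and 0.496% to 1.76% of the ARPC1B count of the same library. Both NK shADAR1 libraries were lower, with a log2 fold change of -1.02 (standard error 0.41). Its unadjusted p was 0.0321 and its adjusted p 1.00 in edgeR's quasi-likelihood test. Without NK scramble replicate 2, which had the most counts, the log2 fold change was -0.40, and without NK scramble replicate 1 it was -1.46. How reads shared with ARPC1A and ARPC1B were counted is not known.

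At the ARPC4 locus, ARPC4-TTLL3 had 23.2 and 19.3 CPM in scramble cells, against 28.4 and 26.7 CPM after knockdown. Both knockdown libraries were higher, at a log2 fold change of 0.38 (standard error 0.21, unadjusted p = 0.0991, adjusted p = 1.00 from edgeR). TTLL3, a tubulin glycine ligase gene downstream, had 115 and 103 CPM in scramble cells, against 154 and 112 CPM after knockdown, a log2 fold change of 0.29 (standard error 0.22) that was 0.0445 without NK shADAR1 replicate 1. ARPC4 and ARPC4-TTLL3 were also summed, although how reads were divided among overlapping genes is not known and was not tested. In the sum, replicate 2 was higher than replicate 1 within each group. The sum was 61.1 and 101 CPM in scramble cells, against 72.8 and 110 CPM after knockdown. ARPC4 made up 62.0% and 81.0% of it in scramble cells, against 61.0% and 75.7% after knockdown.

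ARPC5 and ARPC5L, alternative small subunits at the same place of the complex, were present at similar levels. ARPC5 had 229 and 273 CPM in scramble cells, against 227 and 270 CPM after knockdown, nearly the same values in both groups, with a log2 fold change of -0.012 (standard error 0.20). ARPC5L had 152 and 197 CPM in scramble cells, against 155 and 172 CPM after knockdown, a log2 fold change of -0.090 (standard error 0.21). ARPC5L took 46.7% and 51.3% of their summed FPKM in scramble cells, against 44.2% and 48.3% after knockdown. The difference of -2.74 percentage points came from groups that overlapped (exact permutation test, two-sided, p = 0.667). It was -1.14 points on estimated counts, and ran from -5.03, without NK scramble replicate 1, to -0.436, without NK scramble replicate 2.

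For ARPC5, counts and FPKM ordered the libraries differently. NK shADAR1 replicate 1 had the lowest CPM but the highest FPKM, 138, against 120 and 130 FPKM in NK scramble replicates and 127 FPKM in NK shADAR1 replicate 2. Count divided by FPKM and by the library total gives an implied length. It equals the length used in scaling only if the authors scaled by the same total, which is not known. The implied length of ARPC5 was 1919 and 2062 bases in scramble cells, against 1710 and 2068 bases after knockdown. This is a 1.21-fold range, against a median of 1.06-fold over tested genes, and 17.3% of tested genes had a wider one. Coding transcripts of ARPC5 are annotated from 622 to 7209 bases, so a different mix of transcripts could change this length, which was not tested. On log2(FPKM + 1), limma gave a log2 difference of 0.078 for ARPC5, opposite in sign to that of the counts, and neither passed a test. ARPC2 had implied lengths of 1396 to 1403 bases in the 4 libraries, and ARPC1A had 1582 bases in all 4.

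WAS was among the least variable of the 10 genes. It had 177 and 164 CPM in scramble cells, against 170 and 163 CPM after knockdown, a 1.08-fold range. Its log2 fold change was -0.033 (standard error 0.19), with an interval from -0.45 to 0.38. WASL, which encodes the widely expressed relative N-WASP, was rare here. It had 4.71 and 5.01 CPM in scramble cells, against 3.61 and 3.08 CPM after knockdown. Both knockdown libraries were lower, at a log2 fold change of -0.54 (standard error 0.32, unadjusted p = 0.122, adjusted p = 1.00 from edgeR). WASL made up 1.10% and 1.17% of the summed FPKM of WAS and WASL in scramble cells, against 0.881% and 0.751% after knockdown. That difference of -0.32 percentage points had the smallest p this design allows (exact permutation test, two-sided, p = 0.333). Among the ACTR3 genes, ACTR3C was listed at 0 in every library. ACTR3B took 2.94% and 2.48% of the summed FPKM in scramble cells, against 2.37% and 3.26% after knockdown, with overlapping groups (exact permutation test, two-sided, p = 1.00). The difference of 0.099 percentage points ran from -0.346 to 0.544 with 1 library left out, and was -0.068 on estimated counts.

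**Figure D3:**
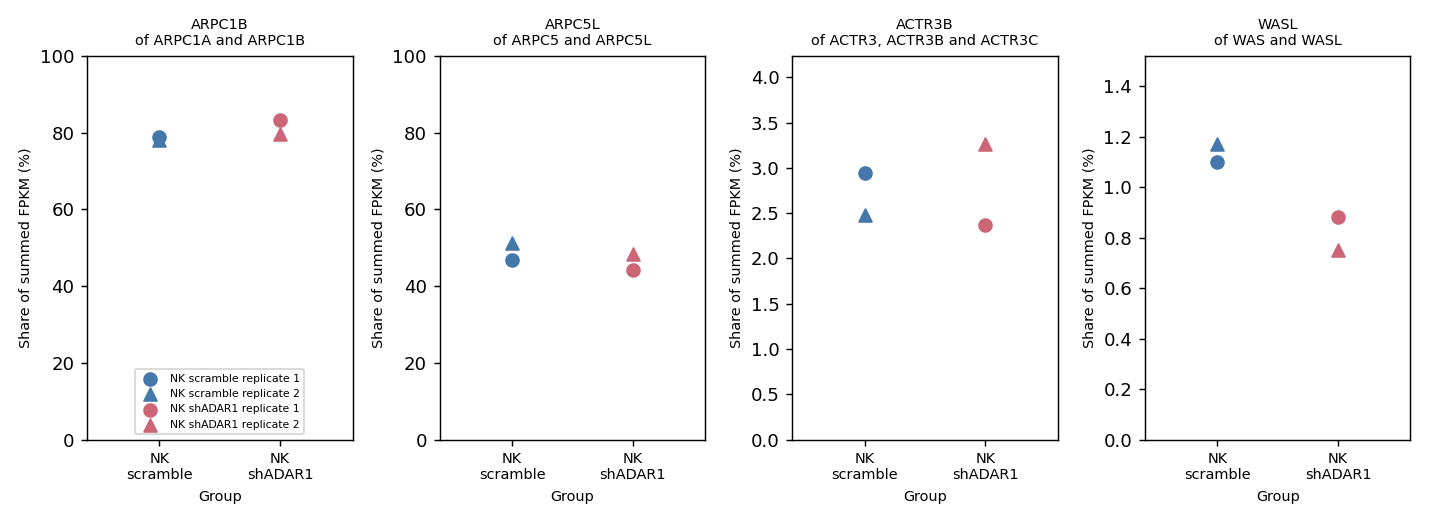
Share of summed FPKM taken by ARPC1B, ARPC5L, ACTR3B and WASL within its family in each library (percent, axes from 0, different scales); circles are replicate 1 and triangles replicate 2. The groups separate for ARPC1B, higher in NK shADAR1 cells, and for WASL, lower, and overlap for ARPC5L and ACTR3B.

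The genes that act around the complex were described with 8 lists by role, 82 genes in all, of which 72 were tested. At an unadjusted p under 0.05, 0 of the 72 passed, against 2.48% of all tested genes, and 0 passed after adjustment (edgeR). Of the 72, 50 had a log2 fold change above 0 and 22 below. Their median was 0.082, against 2.8e-05 over all tested genes, which lay about equally above and below 0. Without NK shADAR1 replicate 2 these medians were -0.017 and -0.011.

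Among 19 tested partners and regulators of WASP, the median log2 fold change was 0.049. RAC2, the hematopoietic Rac GTPase, was the most abundant, at 446 and 442 FPKM in scramble cells, against 480 and 457 FPKM after knockdown, and its log2 fold change was 0.049. The extremes were ABL1, a tyrosine kinase, at -0.20, and VAV3, an exchange factor near the detection limit at 0.280 to 0.610 CPM, at 0.47. None of the list passed the test.

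WASP-family relatives form the WAVE and WASH complexes, which activate ARP2/3 at the leading edge and on endosomes. Of the 11 WAVE complex genes 8 were tested, 7 above and 1 below 0, with a median of 0.11. CYFIP2 was the most abundant at 136 to 156 FPKM, with a log2 fold change of 0.012. WASF2 was lowest at -0.073, and CYFIP1 highest at 0.35 with 1.58 to 3.41 CPM. The 6 WASH complex genes had a median of 0.14, from WASHC3 at -0.040 to WASHC5 at 0.39. WASHC1 was the most abundant at 19.4 to 24.6 FPKM. No gene of either complex passed the test.

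Among 5 other tested activators and stabilizers, HCLS1, the blood-cell cortactin, was the most abundant at 185 to 259 FPKM, with a log2 fold change of 0.078. WHAMM, an activator on internal membranes, was lowest at -0.30 and DBNL highest at 0.098, around a list median of 0.0068. The 7 tested inhibitors and debranching factors had a median of 0.12. CORO1A, the coronin of blood cells, was by far the most abundant, with 1078 and 1028 FPKM in scramble cells, against 1258 and 1075 FPKM after knockdown, and its log2 fold change was 0.14. CORO7 was lowest at -0.069 and CORO1B highest at 0.43. Neither list held a gene that passed.

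The 14 tested genes for actin, monomer binding and capping had a median of 0.11, from TWF1 at -0.11 to CFL2 at 0.22. TMSB4X was the most abundant of them at 3472 to 7132 FPKM, with a log2 fold change of 0.14. The 10 tested formins and other nucleators, which build unbranched filaments, had a median of -0.0036. FMNL2 was lowest at -0.35 and DIAPH3 highest at 0.29, while DIAPH1 was the most abundant at 148 to 158 FPKM with 0.013. As with the subunits, no gene of either list passed the test. The list of paralogs and overlapping genes had a median of 0.086 over 3 tested genes, ACTR3B, ARPC4-TTLL3 and WASL, which are described above.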

How the data were processed

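The authors prepared poly(A)-selected libraries from NK-92 cells with a NEBNext Ultra kit and sequenced them on an Illumina NovaSeq. The submitters' processing notes name fastp 0.18.0. Aligner, counting program, annotation and genome build are not given in the sources used here. The authors deposited estimated counts per gene, not scaled for depth, and FPKM values, scaled by them for depth and transcript length. Of 20323 genes, 20301 matched a symbol.

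Estimated counts were rounded to whole numbers, kept where filterByExpr (minimum count 10) passed the gene, and normalized by TMM. Groups were compared in edgeR 4.0.16 (R 4.3.3) by its quasi-likelihood method, without covariates, with Benjamini-Hochberg adjustment over 11810 genes. The standard error is the log2 fold change divided by the square root of F, and intervals use the t distribution with the total degrees of freedom of the fit. Adjusted p-values are from edgeR unless another tool is named. FPKM served for levels between genes and for shares. The implied length is the count divided by FPKM and by the library total. DESeq2 1.42.0 and limma 3.58.1 were alternatives. Scripts were tested on simulated counts.

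The 10 genes and the lists were chosen with earlier results of these data known. Named from each list were genes with an unadjusted p under 0.05, those with the highest and lowest log2 fold change and the most abundant by FPKM. Sequences and 31-base words come from GENCODE release 29 (GRCh38), and the hairpin from the study's supplement. With 1514 (ARPC4) to 26458 (ARPC2) estimated counts in a library, the spread between 2 libraries per group, estimated in part over all genes, sets the precision.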

Additional observations from a re-analysis of the deposited data

How the results depend on the processing

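The 10 genes passed no adjusted test under DESeq2, RLE or upper quartile scaling, no filter beyond 1 count, a mean of at least 50 counts, the replicate block, limma on FPKM, or with any 1 library left out. At an unadjusted p under 0.05, every setting with all 4 libraries gave 0 of them. There, 289 of 15605 genes passed with DESeq2 and 681 of 11810 with the replicate block. The fit of ARPC4 without NK scramble replicate 2 is given above. Over all tested genes, 213 passed with the fold change without adjustment, and 1 to 47 passed with 1 library left out, where the group left with 1 library is assumed to vary like the other. The regulators' median ran from -0.0172 to 0.11 with 1 library left out, and the difference in WASL share was -0.814 points on estimated counts.

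Deviations of libraries with the same replicate number correlated at r = 0.308 over 11810 genes. With only 2 pairs, and no label saying what a number marks, this does not establish a pairing. With the replicate block, 13 genes passed, none of them among the 10, and the standard error of ARPC4 was 0.17, with a log2 fold change of 0.13.

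Against the alternatives, 17 values of the 10 genes turned sign and 113 did not. ARPC5 was 0.00038 with upper quartile scaling, 0.078 with limma on log2(FPKM + 1), with and without a filter, and 0.0785 with a pseudocount of 0.1. With 1 library left out, log2 fold changes ran from -0.0869 to 0.285 for ACTR2, -0.113 to 0.33 for ACTR3, -0.0323 to 0.126 for ARPC2, -0.318 to 0.054 for ARPC3, -0.436 to 0.746 for ARPC4, -0.146 to 0.116 for ARPC5, -0.268 to 0.104 for ARPC5L and -0.0944 to 0.0217 for WAS. For the other named genes whose sign turned they ran from -0.279 to 0.106 for WASF2, -0.211 to 0.754 for CYFIP1, -0.0335 to 0.0553 for CYFIP2, -0.334 to 0.32 for WASHC3, -0.0361 to 0.261 for WASHC1, -0.15 to 0.301 for HCLS1, -0.368 to 0.254 for CORO7, -0.384 to 0.227 for TWF1, -0.422 to 0.687 for TMSB4X and -0.145 to 0.154 for DIAPH1. Several list extremes kept their sign but came near 0 in the fit where they were smallest, FMNL2 at -0.00579, WASHC5 at 0.0728, VAV3 at 0.0842, CORO1B at 0.0942, DIAPH3 at 0.0818 and ABL1 at -0.0612. With limma on log2(FPKM + 1) WASHC3 was 0.00864, TWF1 0.0136 and CFL2 -0.154, the same without a filter, where VAV3 was -0.0347 and CYFIP1 -0.00959. With the pseudocount of 0.1 they were 0.0105, 0.0187 and -0.189. The cause was not tested.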
